A study of Mus musculus with 7 samples.

Results

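The transcription factors Tbx21, Eomes, Tox, Gata3, Bcl6, Id2, Prdm1, Batf and Runx3 were followed across 7 mouse tumor libraries. They were chosen by name because they direct the fates that T cells can take, and all 9 were found among the 21892 gene symbols of the deposited expression table. All 9 also lay above the mean of 1 TPM (a transcript abundance corrected for gene length and library total) that 13997 genes reached, so none was lost to the filter on low values.

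A T cell that meets its antigen can become a short-lived effector, a long-lived memory cell, a helper cell of several kinds or, when stimulation persists, an exhausted cell. T-bet, the protein of Tbx21, drives type 1 helper and cytotoxic effector genes with Runx3, Eomes and Id2, while GATA3 directs type 2 helper cells and Bcl6 directs follicular helper cells. Tox is required for the exhausted state, and Batf and Blimp-1, the protein of Prdm1, act in both effector and exhausted cells, with Blimp-1 and Bcl6 repressing each other. None of these factors belongs to T cells alone: natural killer cells use Tbx21, Eomes, Runx3 and Id2, B cells use Bcl6, plasma cells use Prdm1, macrophages use Bcl6, and Id2 and Gata3 are used by epithelia.

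The tumors carried an Egfr exon 19 deletion and had been passaged under the skin of C57BL/6 mice; the labels call the tissue lung tumor. The first library came from tumors given vehicle and sampled at day 3, and the next 2 came from tumors given gefitinib, an inhibitor of the EGFR tyrosine kinase, for 3 or 14 days. The other 4 libraries came from tumors given gefitinib for 14 days and sampled 7 days later, at day 21, after DC101 (an antibody against VEGFR2), 4H2 (the antibody against PD-1, going by the series title), DC101 and 4H2 combined, or vehicle. Both vehicle groups are named so by their titles, while the treatment field records that no treatment was given in that period. Each group had 1 library, so there was no replicate spread, no test was possible, and every difference below compares a pair of libraries. The sources used here do not say how many animals entered a library, and TPM keeps no sequencing depth.

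Markers of the labelled tissue were detected in all 7 libraries, but the 4H2 and combination libraries stood apart from the rest. The summed TPM of 8 alveolar type 2 markers, the lung epithelial cells that make surfactant, was 19473 in the day 3 vehicle library, 8195 after 3 days and 10573 after 14 days of gefitinib, 16847 with DC101, 191 with 4H2, 828 with the combination and 14360 in the day 21 vehicle library. Egfr itself had 19.4 TPM with 4H2 and 48.3 TPM with the combination, against 438.7 to 629.8 TPM in the other 5 libraries. Skeletal muscle markers made up 8.86% of all TPM with 4H2 and 8.66% with the combination, against 0.0316% to 1.83% in the others. The 4 CD3 genes, which mark T cells, summed to 9.10 TPM in the day 3 vehicle library, 96.7 TPM after 3 days and 298 TPM after 14 days of gefitinib, 84.9 TPM with DC101, 265 TPM with 4H2, 212 TPM with the combination and 115 TPM in the day 21 vehicle library. None of 13 T cell markers was listed at 0 in any library.

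Tbx21 (chromosome 11, 97098007 to 97115331, minus strand, in GRCm38.p6) varied most of the 9 factors. It had 0.3 TPM in the day 3 vehicle library, 12.0 TPM at day 3 of gefitinib and 25.4 TPM at day 14. Its day 21 levels were 5.3 TPM with DC101, 21.6 TPM with 4H2, 16.3 TPM with the combination and 6.3 TPM with vehicle. The highest library thus held 84.7 times the TPM of the lowest, and day 14 of gefitinib, 4H2 and the combination were the 3 highest libraries. In bulk tumor, more cells that express a gene and more of its RNA per cell cannot be told apart, which holds for every value given here.

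Runx3 (chromosome 4, 135120645 to 135177990, plus strand), which keeps the cytotoxic lineage and represses Cd4, had 15.0 TPM in the day 3 vehicle library, 46.3 TPM at day 3 of gefitinib and 75.3 TPM at day 14. With DC101 it had 32.0 TPM, with 4H2 59.6 TPM, with the combination 36.1 TPM and with vehicle at day 21 31.5 TPM. Its highest level was 5.02 times its lowest, and DC101 and the day 21 vehicle library differed by less than 1 TPM.

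Eomes (chromosome 9, 118478186 to 118486132, plus strand), the T-box relative of Tbx21 that serves memory, natural killer and late exhausted cells, was the flattest of the 9. Its level was 26.8 TPM in the day 3 vehicle library, where Tbx21 was near the smallest value the table can show. It had 31.3 TPM at day 3 and 49.6 TPM at day 14 of gefitinib. At day 21 the levels were 26.6 TPM with DC101, 23.7 TPM with 4H2, 17.4 TPM with the combination and 25.5 TPM with vehicle. Highest and lowest were 2.85-fold apart, so Eomes, unlike Tbx21, did not separate the 4H2 library from the day 21 vehicle library.

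Id2 (chromosome 12, 25093799 to 25096092, minus strand), which blocks E proteins and sustains effector and innate lymphoid cells, was by far the most abundant factor and ran the other way. Its TPM was 867.2 in the day 3 vehicle library, 160.4 at day 3 of gefitinib and 162.5 at day 14. Its TPM was then 482.2 with DC101, 127.3 with 4H2, 139.0 with the combination and 320.7 with vehicle at day 21. The mean TPM of Id2 exceeded that of 96.8% of the 13997 genes, while the other 8 factors lay between 26.5% (Prdm1) and 71.7% (Batf).

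Tox (chromosome 4, 6686353 to 6991557, minus strand) came late. It had 1.3 TPM in the day 3 vehicle library and 4.5 TPM at day 3 of gefitinib, but 27.7 TPM at day 14. Its day 21 levels were 10.1 TPM with DC101, 23.3 TPM with 4H2, 16.3 TPM with the combination and 12.2 TPM with vehicle. Tox was the one factor whose day 3 gefitinib level lay below all 4 day 21 levels, and its highest level was 21.3 times its lowest.

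Prdm1 (chromosome 10, 44437174 to 44528558, minus strand) had 1.9 TPM in the day 3 vehicle library, 8.3 TPM at day 3 of gefitinib and 15.6 TPM at day 14. With DC101 the level was 5.0 TPM, with 4H2 12.3 TPM, with the combination 9.5 TPM and with vehicle at day 21 7.8 TPM. Batf (chromosome 12, 85686720 to 85709087, plus strand), which binds DNA with JUN proteins and IRF4, had 8.9 TPM in the day 3 vehicle library, 54.4 TPM at day 3 of gefitinib and 64.3 TPM at day 14. Batf was highest with 4H2, at 84.3 TPM, and had 62.4 TPM with the combination, 24.0 TPM with DC101 and 26.1 TPM with vehicle at day 21. Both factors were lowest in the day 3 vehicle library, and the DC101 library was the second lowest for both.

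Gata3 (chromosome 2, 9857078 to 9887953, minus strand) had 7.6 TPM in the day 3 vehicle library, 17.0 TPM at day 3 of gefitinib and 20.6 TPM at day 14. It was highest with the combination, at 25.1 TPM, and had 22.2 TPM with 4H2, 11.1 TPM with DC101 and 11.4 TPM with vehicle at day 21. Bcl6 (chromosome 16, 23965050 to 23988866, minus strand) had 10 TPM in the day 3 vehicle library, 39.3 TPM at day 3 of gefitinib and 37.5 TPM at day 14. Bcl6 reached its highest level with 4H2, 51.8 TPM, and had 41.2 TPM with the combination, 20.1 TPM with DC101 and 20.4 TPM with vehicle at day 21. Both helper factors were lower at day 14 of gefitinib than in the 2 libraries that received 4H2, whereas Tbx21, Runx3, Eomes, Tox and Prdm1 all had their highest level at day 14. Eomes, Tox, Gata3, Bcl6 and Runx3 each overlap another annotated gene in GENCODE M21, and the sources used here do not say whether the authors counted by strand.

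**Figure D1:**
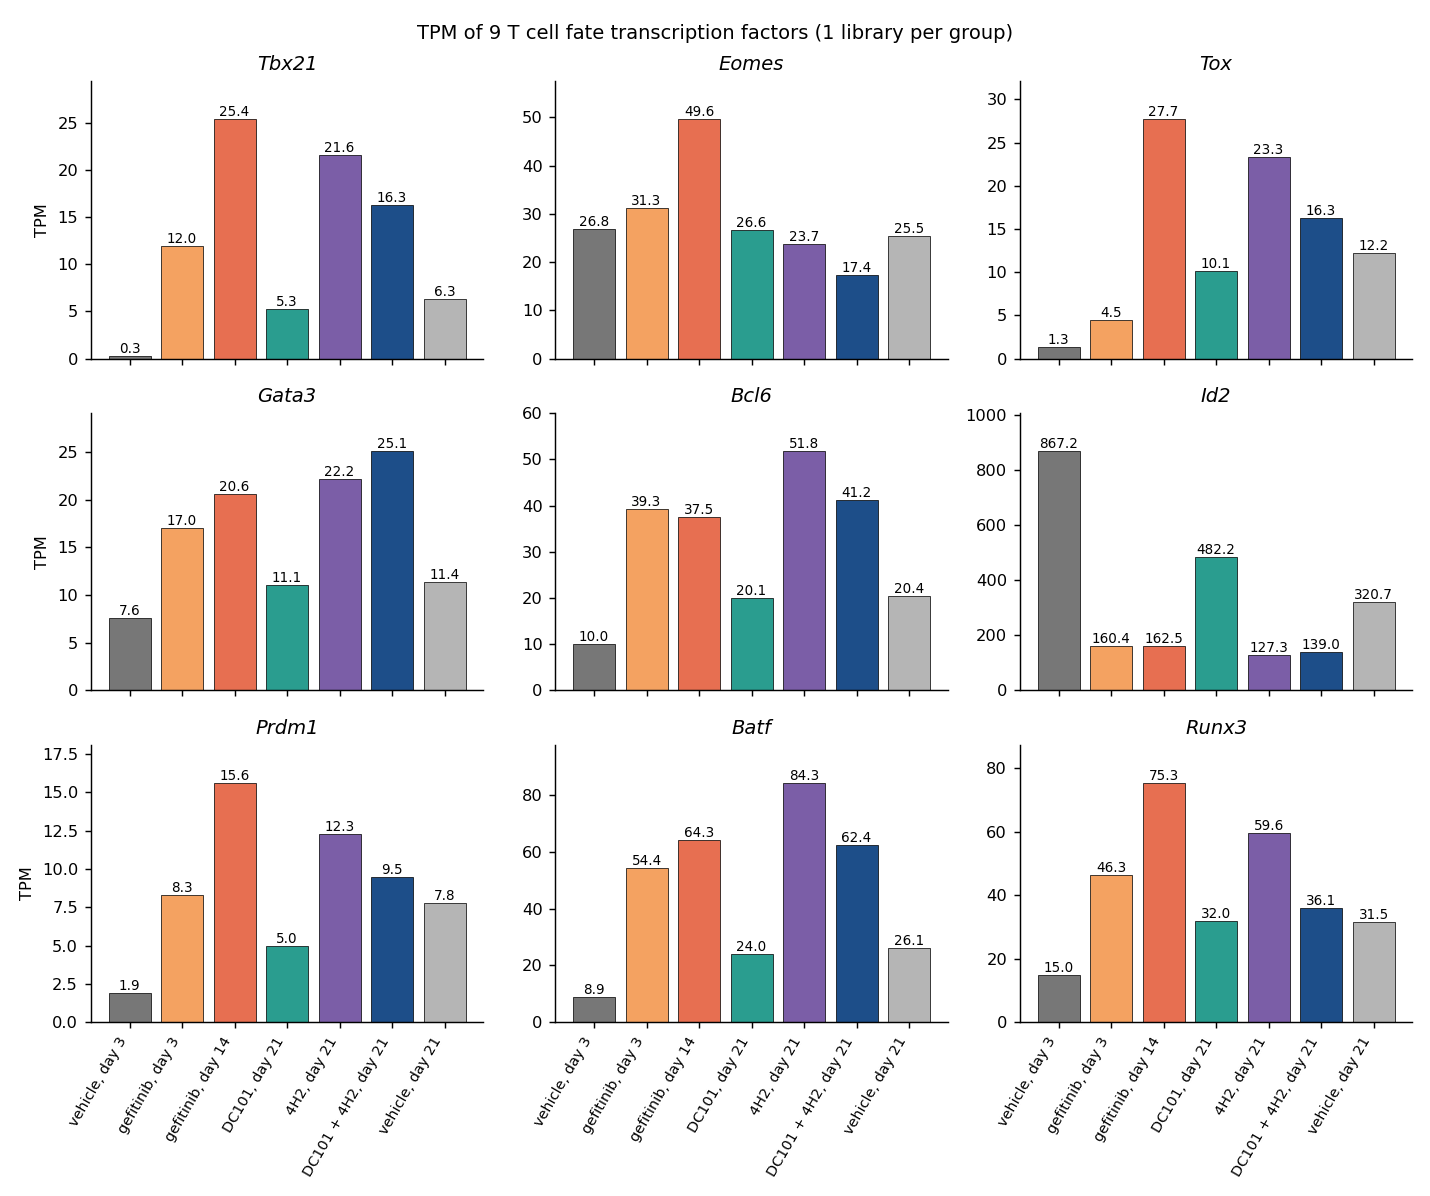
TPM of the 9 transcription factors in each of the 7 libraries, 1 bar per library and 1 panel per factor, each with its own linear axis from 0. Tbx21, Runx3, Eomes, Tox and Prdm1 peak at day 14 of gefitinib, Batf and Bcl6 with 4H2, Gata3 with the combination, and Id2 in the day 3 vehicle library.

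Batf and Bcl6 had the most similar profiles of any pair of factors (Pearson r of log2(TPM + 1) 0.995 over the 7 libraries), while Eomes and Id2 departed from the rest, so the 250 bases before the RefSeq transcription start of these 4 are shown. The 5 motifs below were searched on both strands, and matches are in capitals: TGANTCA for AP-1 (the kind of site that BATF binds with JUN), TGTGGT for RUNX, TCACAC for the T-box, AGATAA for GATA and GGAAA for the NFAT core. The windows lie at chr12:85686470-85686719 on the plus strand (Batf), chr16:23988853-23989102 on the minus strand (Bcl6), chr9:118477939-118478188 on the plus strand (Eomes) and chr12:25096093-25096342 on the minus strand (Id2), in RefSeq on GRCm38.p6, each 5′ to 3′.
Batf: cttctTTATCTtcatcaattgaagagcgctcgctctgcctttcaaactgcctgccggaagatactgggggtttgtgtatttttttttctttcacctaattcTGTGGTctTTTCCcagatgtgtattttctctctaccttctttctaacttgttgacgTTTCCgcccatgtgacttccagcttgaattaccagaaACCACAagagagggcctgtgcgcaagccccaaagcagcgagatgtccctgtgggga
Bcl6: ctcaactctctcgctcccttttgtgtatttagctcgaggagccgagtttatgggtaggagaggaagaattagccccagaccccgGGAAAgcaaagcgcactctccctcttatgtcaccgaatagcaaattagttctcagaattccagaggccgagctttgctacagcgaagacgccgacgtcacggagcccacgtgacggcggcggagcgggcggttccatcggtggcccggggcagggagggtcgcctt
Eomes: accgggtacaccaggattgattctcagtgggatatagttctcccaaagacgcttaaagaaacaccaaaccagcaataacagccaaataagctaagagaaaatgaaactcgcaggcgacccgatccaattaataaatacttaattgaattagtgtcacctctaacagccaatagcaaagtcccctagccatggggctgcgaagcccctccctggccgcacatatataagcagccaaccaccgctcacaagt
Id2: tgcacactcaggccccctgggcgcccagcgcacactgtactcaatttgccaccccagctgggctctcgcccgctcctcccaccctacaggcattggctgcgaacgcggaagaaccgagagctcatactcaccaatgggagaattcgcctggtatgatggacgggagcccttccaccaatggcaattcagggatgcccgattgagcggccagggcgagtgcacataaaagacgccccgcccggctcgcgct

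Batf held RUNX matches 149 and 56 bases before its start, a GATA match at 245 and NFAT cores at 141 and 93, and Bcl6 held an NFAT core at 166. The Eomes and Id2 windows held none of the 5 motifs. Of 10 windows for 8 factors in the RefSeq table, Runx3 held RUNX matches at 134 and 126 at the more distal of its starts, Prdm1 an AP-1 match at 48, Gata3 NFAT cores at 204 and 98, Tbx21 an NFAT core at 178, and the second Bcl6 start NFAT cores at 239, 163 and 28. Over the same 250 bases, 6.75% of all 32851 RefSeq promoters held the AP-1 motif, 14.0% the RUNX motif, 12.3% the T-box motif, 9.99% the GATA motif and 55.6% the NFAT core, so that the NFAT core in particular is common. A match is a run of letters and not a bound site, and no T-box match was found in any of the 10 windows.

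The day 3 libraries, gefitinib against vehicle, show what EGFR inhibition went with early. On the log2((TPM + 1) / (TPM + 1)) scale used for all differences, 7 of the 9 factors were at least 2-fold higher with gefitinib and 1 was at least 2-fold lower. Over the 13997 genes, 20.8% were at least 2-fold higher and 14.4% at least 2-fold lower. Tbx21 led with a log2 difference of 3.32, followed by Batf at 2.48, Bcl6 at 1.87, Prdm1 at 1.68, Runx3 at 1.56, Tox at 1.26 and Gata3 at 1.07. Eomes differed by 0.22 and Id2 by -2.43. The median of the 9 was 1.56, against -0.09 for all genes. With a pseudocount of 5 in place of 1, which weighs low genes less, 4 factors were at least 2-fold higher. The all-gene share was then 13.7%, and Tox, Gata3 and Prdm1 came to 0.59, 0.80 and 0.95.

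Effector genes stood higher with gefitinib at day 3 as a whole list: 15 of 15 were at least 2-fold higher, with a median of 2.93. Granzyme B, the Gzmb product that cytotoxic cells release, had 31.6 TPM with gefitinib, against 3.1 TPM with vehicle. Of 12 exhaustion genes 9 were higher and the median was 1.79; Pdcd1, which encodes PD-1, had 11.7 TPM with gefitinib, against 0.8 TPM with vehicle. Type 1 helper genes were higher in 7 of 10 and lower in 1, with a median of 2.05, and type 2 helper genes were higher in 3 of 6 and lower in 1, with a median of 0.98. All 13 T cell markers were at least 2-fold higher as well (median 2.60). The 9 natural killer markers other than Eomes summed to 162 TPM with gefitinib, against 9.10 TPM with vehicle, and the 10 macrophage markers summed to 16125 TPM, against 1854 TPM. How much of each factor's difference came with these cell markers was not tested.

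Day 14 of gefitinib against vehicle at day 3 gave the same counts of factors, 7 higher and 1 lower, beside 22.7% and 12.7% of all genes. This comparison and the one before it share the vehicle library. The libraries also differ in tumor age, and no vehicle library was sampled at day 14, so age and gefitinib cannot be told apart. The log2 difference was 4.34 for Tbx21, 3.64 for Tox, 2.72 for Batf, 2.52 for Prdm1, 2.25 for Runx3, 1.81 for Bcl6 and 1.33 for Gata3, against 0.86 for Eomes and -2.41 for Id2. The median was 2.25 for the 9 factors and 0.03 for all genes. Effector genes were again higher in 15 of 15, now with a median of 3.43, and exhaustion genes were higher in 11 of 12 with a median of 3.22. Both medians lay below those of the T cell markers, higher in 13 of 13 with a median of 3.87, and of the 4 CD3 genes, with a median of 4.18. Natural killer markers were higher in 8 of 8 (median 2.49) and macrophage markers in 10 of 10 (median 3.03). Type 1 helper genes were higher in 7 of 10 (median 2.54), follicular helper genes in 7 of 8 (median 2.64), and type 2 helper genes in 3 of 6 (median 1.0). B and plasma cell markers, 12 genes that include users of Bcl6 and Prdm1, summed to 543 TPM at day 14 of gefitinib, against 21.6 TPM with vehicle at day 3; the part of any of these cell markers in the factors' levels was not tested.

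Set directly against day 3 of gefitinib, day 14 had Tox 2.38 and Tbx21 1.02 higher on the log2 scale, and these 2 were the only factors at least 2-fold apart, beside 4.93% of all genes higher and 2.73% lower. Tbx21 came below 2-fold with a pseudocount of 5, at 0.84, and after a rescaling by the median of ratios between libraries, at 0.94, which left Tox alone. The share of all genes higher was then 1.81% and 4.07%. Prdm1 differed by 0.84, Runx3 by 0.69, Eomes by 0.65, Gata3 by 0.26, Batf by 0.24, Id2 by 0.02 and Bcl6 by -0.07. The helper factors and Batf therefore stood near their day 14 level by day 3, in these 2 libraries, and Tox did not. Tumor age and the length of gefitinib cannot be told apart in this pair. Exhaustion genes were higher in 8 of 12 and lower in 1, with a median of 1.26, effector genes higher in 8 and lower in 1 with a median of 1.02, and T cell markers higher in 11 of 13 with a median of 1.15. Pdcd1 had 85.5 TPM at day 14, against 11.7 TPM at day 3, and Tox2, a close relative of Tox, 15.9 TPM against 1.5 TPM. Gzmb had 21.1 TPM at day 14, against 31.6 TPM at day 3.

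At 7 days after gefitinib, the day 21 vehicle library was set against day 14 of gefitinib. No factor was at least 2-fold higher and 4 were at least 2-fold lower, beside 7.62% and 7.89% of all genes. Those lower at day 21 were Tbx21 (log2 difference -1.85), Batf (-1.27), Runx3 (-1.23) and Tox (-1.12). Eomes at -0.93, Prdm1 at -0.92, Bcl6 at -0.85 and Gata3 at -0.80 lay below day 14 by less than 2-fold, and Id2 lay above it at 0.98. The median was -0.93, against -0.01 for all genes. The companion lists were lower too, with 6 of 15 effector genes (median -0.90), 6 of 12 exhaustion genes (median -1.02), 7 of 8 follicular helper genes (median -1.23) and all 13 T cell markers (median -1.32) at least 2-fold lower. So were 6 of 8 natural killer (median -1.29), 7 of 10 macrophage (median -1.11) and 10 of 11 B and plasma cell markers (median -1.73). Epithelial markers were at least 2-fold higher in 10 of 12 (median 1.58). The part of these markers in the factors' levels was not tested. Tumor age and time off gefitinib cannot be told apart in this pair.

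The same day 21 vehicle library still differed from vehicle at day 3. In that comparison 5 factors were at least 2-fold higher and 1 at least 2-fold lower, beside 15.3% and 3.11% of all genes. Tox at 2.52 and Tbx21 at 2.49 led, before Prdm1 at 1.60, Batf at 1.45 and Runx3 at 1.02, with Bcl6 at 0.96 and Gata3 at 0.53 below 2-fold. Id2 differed by -1.43 and Eomes by -0.07, and the median was 1.02 for the 9, against 0.04 for all genes. With a pseudocount of 5, Prdm1 and Runx3 came to 0.89 and 0.87 and 3 factors were higher, beside 8.54% of all genes. Days 3 and 21 also differ in tumor age, which cannot be told apart from the past gefitinib here.

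**Figure D2:**
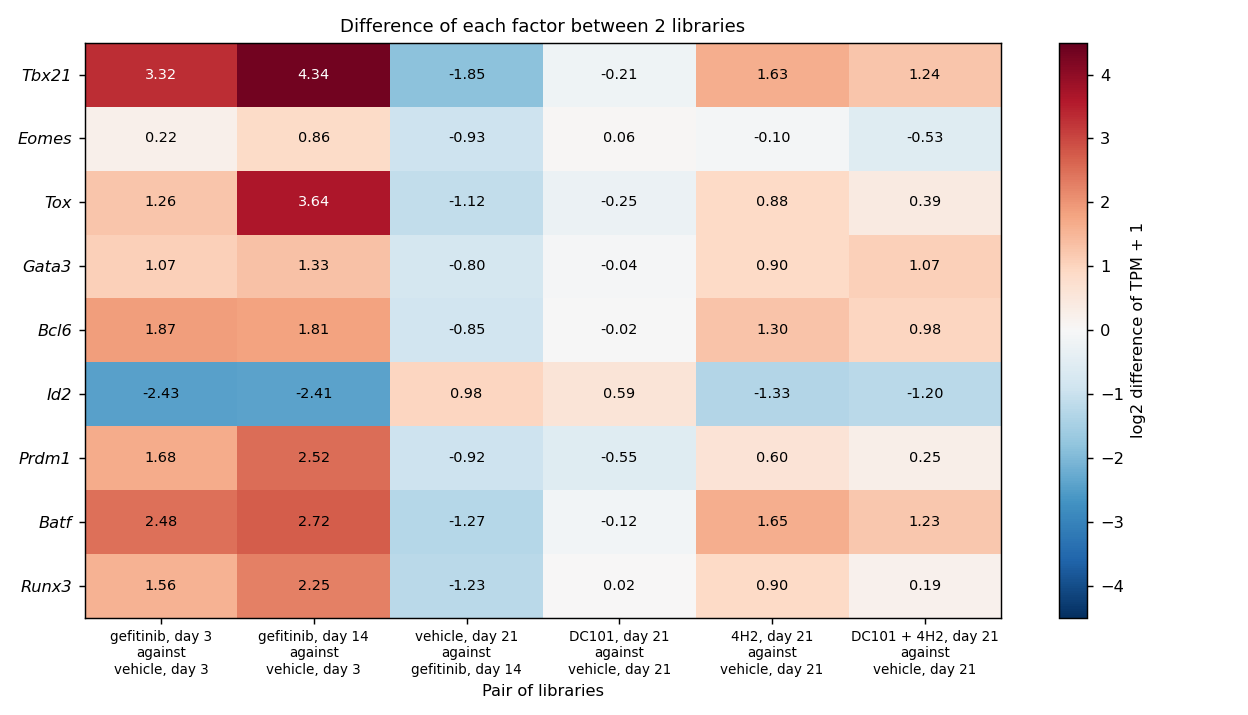
Log2 difference of TPM + 1 for the 9 factors (down the page) in 6 pairs of libraries (across), with the value in each cell and the colour running from blue (lower) to red (higher). Tbx21 and Tox reach 4.34 and 3.64 at day 14 of gefitinib against vehicle at day 3, Id2 has the opposite sign to Tbx21 in all 6 pairs, and the DC101 column stays within 0.59 of 0.

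DC101 against vehicle at day 21 had no factor 2-fold apart in either direction, beside 3.12% of all genes higher and 1.11% lower. Id2 differed most, at 0.59, followed by Prdm1 at -0.55, Tox at -0.25 and Tbx21 at -0.21. Batf (-0.12), Eomes (0.06), Gata3 (-0.04), Bcl6 (-0.02) and Runx3 (0.02) were within 0.12 of the vehicle library on the log2 scale. Among companions, 2 of 15 effector genes and 1 of 12 exhaustion genes were at least 2-fold lower with DC101, and their medians were -0.58 and -0.49, against -0.05 for all genes. The medians of the 4 CD3 genes, the CD8 chains and the 13 T cell markers were -0.41, -0.55 and -0.34, with none at least 2-fold lower, while skeletal muscle markers were higher in 14 of 14 (median 2.54) and adipocyte markers in 6 of 8 (median 1.14). What part these had in the programme medians was not tested. Gzmb had 5.5 TPM with DC101, against 9.1 TPM with vehicle, and Pdcd1 had 15.8 TPM, against 27.5 TPM.

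With 4H2, 3 factors were at least 2-fold higher than in the day 21 vehicle library and 1 was at least 2-fold lower, beside 10.9% and 20.0% of all genes. Batf (1.65), Tbx21 (1.63) and Bcl6 (1.30) were the higher factors and Id2 (-1.33) the lower one. Gata3 and Runx3 at 0.90, Tox at 0.88 and Prdm1 at 0.60 were higher by less than 2-fold, and Eomes differed by -0.10. The median was 0.90 for the 9 factors and -0.21 for all genes. The 4H2 library's all-gene median moved by 0.23 when libraries were rescaled by the median of ratios, and the share of higher genes among those 2-fold apart was then 48.9% in place of 35.3%. Under that scaling 6 factors were at least 2-fold higher, beside 15.0% of all genes. Runx3 came to 1.15, Gata3 to 1.14 and Tox to 1.12, and Eomes turned to 0.14. The same number, 6, was reached after renormalizing without muscle, skin, hair and adipocyte markers, or without the 100 most abundant genes. The all-gene shares were then 12.6% and 13.6%.

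T cell markers were at least 2-fold higher with 4H2 in 10 of 13, with a median of 1.19. The 12 epithelial markers summed to 54.8 TPM with 4H2, against 8284 TPM with vehicle, and Epcam among them had 3.0 TPM, against 332.3 TPM. Across libraries Id2 had a Pearson r of 0.74 with the epithelial and 0.71 with the alveolar type 2 profile. Between the day 21 and day 3 vehicle libraries, Id2 differed by -1.43, the epithelial median by 0.44 and the alveolar type 2 median by -0.71. The part of these markers in the level of Id2 was not tested. Of the programmes with 4H2, 4 of 15 effector genes (median 0.69) and 1 of 12 exhaustion genes (median 0.37) were at least 2-fold higher. Type 1 helper genes were higher in 3 of 10 and lower in 2 (median 0.80). Follicular helper genes were higher in 3 of 8 (median 0.85), while the type 2 helper median of -0.06 turned to 0.13, 0.04 and 0.05 under the 3 rescalings named above. Ifng, the type 1 cytokine that T-bet drives, had 14.5 TPM with 4H2, against 10.1 TPM with vehicle.

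With DC101 and 4H2 combined, 3 factors were at least 2-fold higher than in the day 21 vehicle library and 1 was at least 2-fold lower, beside 11.7% and 17.0% of all genes. The higher ones were Tbx21 (1.24), Batf (1.23) and Gata3 (1.07), with Bcl6 just short at 0.98, and Id2 was the lower one (-1.20). Tox at 0.39, Prdm1 at 0.25 and Runx3 at 0.19 were little apart from vehicle, and Eomes was lower, at -0.53. The median was 0.39, against -0.17 for all genes. A pseudocount of 5 left 1 factor at least 2-fold higher, beside 7.84% of all genes, with Tbx21 at 0.91 and Gata3 at 0.88. After rescaling by the median of ratios, the all-gene median moved by 0.22. The share of higher genes among those 2-fold apart became 54.6% in place of 40.8%. No factor was then 2-fold lower, beside 12.6% of all genes. Id2 came to -0.96 and Bcl6 to 1.21. Effector and exhaustion genes were nearly level with vehicle (medians 0.10 and 0.19), with 1 of 15 and 1 of 12 at least 2-fold higher and 1 exhaustion gene at least 2-fold lower, whereas 5 of 8 follicular helper genes (median 1.32) and 5 of 10 naive, memory and stem-like genes (median 1.04) were higher. In the same comparison T cell markers were higher in 8 of 13 (median 1.06). B and plasma cell markers were higher in 9 of 11 (median 1.64), and skin and hair follicle markers in 7 of 8 (median 3.26). The part of these markers in the follicular helper and stem-like medians and in the level of Gata3 was not tested. The 3 antibody comparisons share the day 21 vehicle library.

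**Figure D3:**
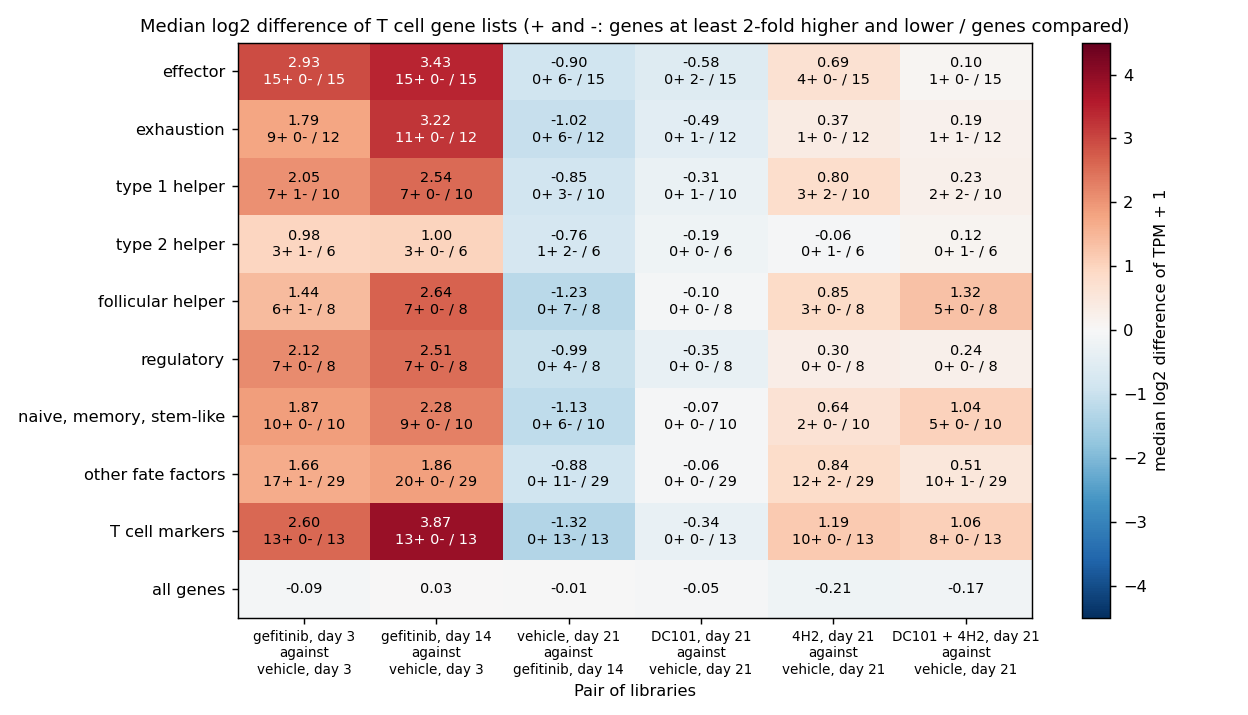
Median log2 difference of TPM + 1 for 9 gene lists and for all genes (down the page) in 6 pairs of libraries (across), with the numbers of genes at least 2-fold higher (+) and lower (-) out of those compared under each median. Effector and exhaustion medians are 3.43 and 3.22 at day 14 of gefitinib against vehicle at day 3, and 0.10 and 0.19 with the combination at day 21, where the follicular helper median is 1.32.

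Set against 4H2 alone, the combination had no factor 2-fold apart in either direction, beside 4.94% of all genes higher and 0.464% lower. The differences of 8 factors lay between -0.49 (Tox) and 0.17 (Gata3), and Runx3 differed most, at -0.71. Against DC101 alone, 4 factors were at least 2-fold higher with the combination and 1 was at least 2-fold lower, beside 11.1% and 14.3% of all genes. These were Tbx21 at 1.46, Batf at 1.34, Gata3 at 1.11 and Bcl6 at 1.0, with Id2 at -1.79. Tox at 0.64, Prdm1 at 0.81, Runx3 at 0.17 and Eomes at -0.58 stayed within 2-fold. T cell markers were higher in 12 of 13 (median 1.32) and B and plasma cell markers in 10 of 11 (median 1.91). Epithelial markers were lower in 12 of 12 (median -3.58). The part of these markers in the factors' levels was not tested. A pseudocount of 5 left 2 factors higher in that comparison, beside 6.55% of all genes. The median of ratios moved the share of higher genes among those 2-fold apart to 55.9% in place of 43.8%.

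Because the CD3 genes also varied widely between libraries, each factor was also expressed as TPM per 100 TPM of the 4 CD3 genes. On that scale Tbx21 had 3.30 in the day 3 vehicle library, 12.4 at day 3 of gefitinib and 8.53 at day 14, then 6.24 with DC101, 8.15 with 4H2, 7.70 with the combination and 5.46 with vehicle at day 21. The day 3 vehicle value is coarse, between 2.69 and 3.93, since its 0.3 TPM was rounded to 1 decimal. Tbx21 alone of the 9 was higher per CD3 at day 3 of gefitinib than with vehicle at day 3. Tox per 100 CD3 TPM had 14.3 in the day 3 vehicle library, 4.65 at day 3 of gefitinib and 9.30 at day 14, then 11.9 with DC101, 8.80 with 4H2, 7.70 with the combination and 10.6 with vehicle at day 21. Tox per CD3 was thus lowest, and Tbx21 per CD3 highest, at day 3 of gefitinib. Natural killer cells also use Tbx21. Their 9 markers other than Eomes summed to 162 TPM in that library, against 9.10 to 102 TPM in the others. Their part in the Tbx21 values per CD3 was not tested. Against Ptprc, which marks all leukocytes, Tox was again lowest at day 3 of gefitinib, at 2.69 per 100 TPM. Tbx21 had 7.17 there and was highest at day 14, at 15.5, where Tox was highest too, at 17.0. Per 100 TPM of Cd8a and Cd8b1, Tox had 92.9 with vehicle at day 3, 18.4 at day 3 of gefitinib and 25.7 at day 14. At day 21 it had 24.8 with DC101, 22.3 with 4H2, 23.9 with the combination and 20.2 with vehicle. Across libraries the Pearson r of Tox with the CD8 chains was 0.97. Cd8a over Cd4 was 0.180 at day 3 and 0.550 at day 14 of gefitinib, and its part in the Tox values was not tested.

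Per 100 CD3 TPM, Batf ranged from 21.6 at day 14 of gefitinib to 97.8 in the day 3 vehicle library, and within day 21 it had 28.3 with DC101, 31.8 with 4H2, 29.5 with the combination and 22.6 with vehicle. Bcl6 had 23.7 with DC101, 19.6 with 4H2, 19.5 with the combination and 17.7 with vehicle at day 21, so the 4H2 difference that was 1.30 in log2 TPM was 0.14 on this scale. Gata3 had 13.1 with DC101, 8.38 with 4H2, 11.9 with the combination and 9.89 with vehicle. Runx3 and Prdm1 were lower per CD3 with 4H2 (22.5 and 4.64) and with the combination (17.1 and 4.49) than with vehicle (27.3 and 6.76). Against the CD8 chains Cd8a and Cd8b1 in place of CD3, 3 of these 4 directions turned: Runx3 had 57.1 with 4H2 and 52.9 with the combination, against 52.2 with vehicle, and Prdm1 had 11.8 and 13.9, against 12.9. Eomes had 8.95 with 4H2 and 8.22 with the combination, against 22.1 with vehicle at day 21 and 295 with vehicle at day 3, and Id2 had 48.1 and 65.7, against 278 and 9530. Several of the 9 are not particular to T cells, so a high value in the day 3 vehicle library, where the CD3 sum is 9.10 TPM, need not be a level within T cells.

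**Figure D4:**
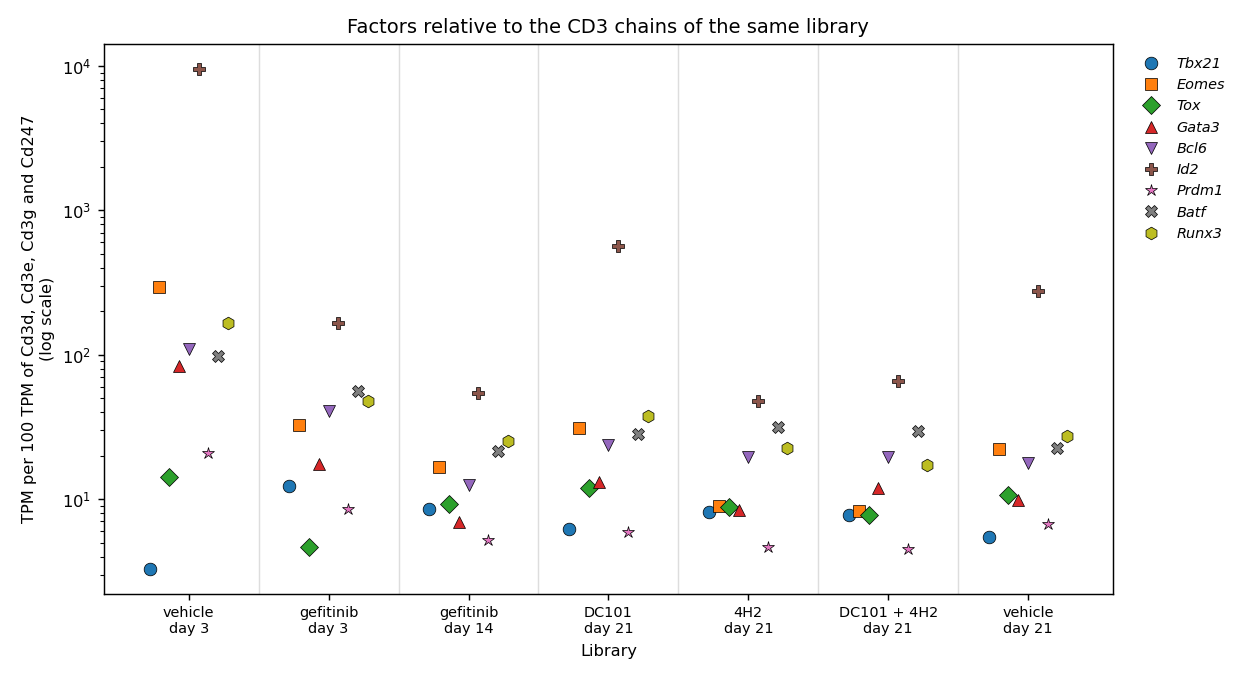
TPM of the 9 factors per 100 TPM of the 4 CD3 genes in the 7 libraries, on a log axis with 1 point per library. Id2 (9530) and Eomes (295) are highest in the day 3 vehicle library, while Tbx21 is lowest there (3.30) and highest at day 3 of gefitinib (12.4).

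The balance between factors was read as ratios of TPM within a library, which no rescaling of libraries can move. Tox over Tbx21, an exhaustion factor over an effector factor, was 4.33 in the day 3 vehicle library (3.57 to 5.40 allowing for rounding), 0.375 at day 3 of gefitinib and 1.09 at day 14. At day 21 it was 1.91 with DC101, 1.08 with 4H2, 1.0 with the combination and 1.94 with vehicle. DC101 and vehicle were therefore alike in this ratio, as were 4H2, the combination and day 14 of gefitinib. Natural killer cells use Tbx21 as well, so this bulk ratio does not measure a balance within T cells. The part of natural killer markers and of Cd8a over Cd4 in it was not tested.

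Tbx21 over Eomes was 0.0112 in the day 3 vehicle library, 0.383 at day 3 of gefitinib and 0.512 at day 14, then 0.199 with DC101, 0.911 with 4H2, 0.937 with the combination and 0.247 with vehicle at day 21. Tbx21 over Gata3, the type 1 over the type 2 factor, was 0.0395 in the day 3 vehicle library. It was 0.706 at day 3 of gefitinib and 1.23 at day 14, its highest value. At day 21 it was 0.477 with DC101, 0.973 with 4H2, 0.649 with the combination and 0.553 with vehicle. Eomes and Gata3 are not particular to T cells, so neither bulk ratio measures a balance within T cells, such as helper balance. Across libraries Gata3 had a Pearson r of 0.19 with the type 2 helper profile. That r depended on the libraries kept: it was -0.37 without the day 3 vehicle library and 0.80 without the 4H2 and combination libraries. Bcl6 over Prdm1, the mutual repressors, was 5.26 in the day 3 vehicle library, 4.73 at day 3 of gefitinib and 2.40 at day 14. At day 21 it was 4.02 with DC101, 4.21 with 4H2, 4.34 with the combination and 2.62 with vehicle. Across libraries, though, Bcl6 and Prdm1 rose and fell together, with a Pearson r of 0.900. Type 2 cytokines gave little to set beside Gata3: Il4 was listed at 0 in 6 libraries and had 0.3 TPM at day 3 of gefitinib, and Il5 and Il13 never exceeded 0.5 TPM.

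**Figure D5:**
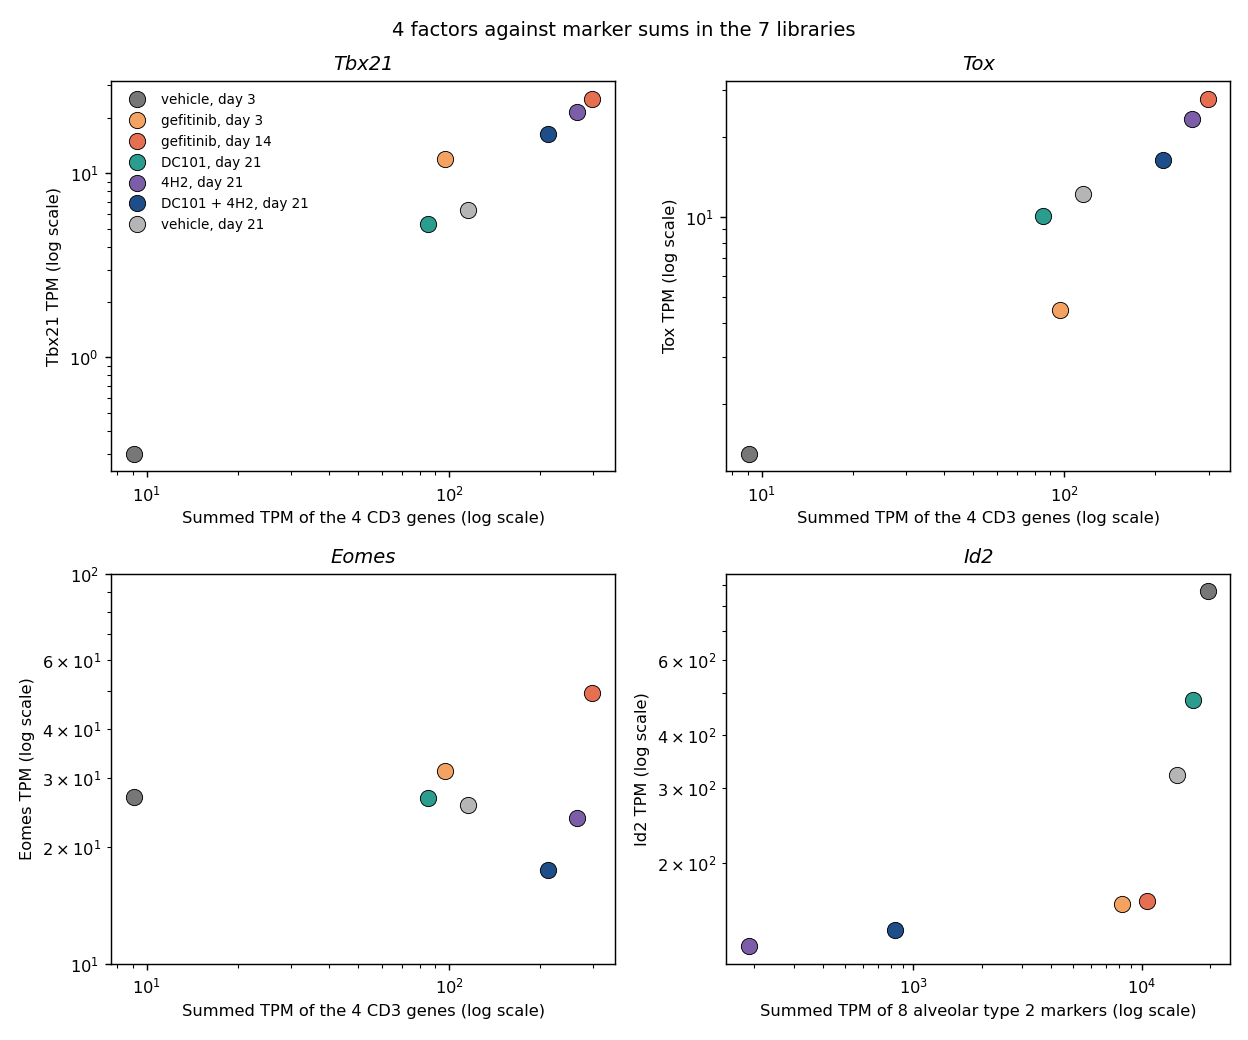
TPM of Tbx21, Tox and Eomes against the summed TPM of the 4 CD3 genes, and of Id2 against the summed TPM of 8 alveolar type 2 markers, with 1 point per library and log scales on all axes. Tbx21 and Tox climb with the CD3 sum, with Tox at day 3 of gefitinib (4.5 TPM) below the run of the other points, Eomes shows no such run, and Id2 is lowest where the alveolar type 2 sum is lowest (191, with 4H2).

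Across the 7 libraries, which share a tumor line and in 4 cases the same gefitinib course, the factors were set against the mean log2 profile of the 13 T cell markers as a description. Pearson r was 0.99 for Tbx21, 0.98 for Prdm1, 0.95 for Batf, 0.92 for Tox, Bcl6 and Gata3, 0.91 for Runx3, 0.10 for Eomes and -0.92 for Id2. Without the day 3 vehicle library it was 0.96 for Tbx21, 0.92 for Prdm1, 0.90 for Gata3, 0.88 for Batf, 0.81 for Bcl6, 0.78 for Tox, 0.77 for Runx3, 0.14 for Eomes and -0.83 for Id2. Without the 4H2 and combination libraries Eomes alone moved far, to 0.67. Libraries ranked by Id2 and by the alveolar type 2 profile fell in the same order (Spearman rho 1.0), and by Bcl6 in the exact opposite order (-1.0). Pearson r with that profile was 0.71 for Id2 and -0.74 for Bcl6, nearer 0 than their r with the T cell profile or with the dendritic cell profile (-0.97 for Id2 and 0.97 for Bcl6).

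The genes most like each factor were sought among 11072 protein-coding genes by Pearson r over the 7 libraries. Tbx21 lay closest to Elmo1 (0.999), Parvg (0.998) and Ptpn22 (0.998), and Tox to Cxcr6 (0.993), Htra2 (0.990) and Lag3 (0.985), of which Cxcr6 and Lag3 encode a chemokine receptor and an inhibitory receptor of T cells. Eomes lay closest to Wwp2 (0.980), Etnk1 (0.980) and Commd7 (0.969), and Runx3 to Rnaset2b (0.990), Zfp513 (0.987) and Mmp25 (0.986). Id2 lay closest to Hdac2 (0.998), Vrk1 (0.996) and Vps36 (0.995), and Gata3 to Wdr26 (0.995), Stat5b (0.992) and Apol7c (0.989). For Bcl6 they were Tnip2 (0.998), Qk (0.995) and Fam214b (0.994), for Prdm1 Dusp1 (0.994), Ppp1r16b (0.993) and Rhof (0.992), and for Batf Phyhd1 (0.998) and Arap1 (0.997). Each r rests on 7 libraries from a shared tumor line and is given as a description.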

How the data were processed

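Per the labels' protocols, directional libraries were made from RNA of frozen tumor after rRNA depletion. The authors deposited TPM for each of 7 libraries, rounded to 1 decimal and summing to about 1000000 per library. The submitters' processing notes name GRCm38.p6. The sources used here name no aligner, counting tool or annotation, and TPM keeps no depth, so no counting interval is given. Differences were log2((TPM + 1) / (TPM + 1)), a gene counted as higher or lower at 2-fold or more, and background shares run over the 13997 genes that averaged at least 1 TPM. With 1 library per group no test was run. Values were computed in Python 3.11.15 with pandas 2.3.3, numpy 2.4.6 and scipy 1.17.1, and the calculation was tested on simulated data. Named genes were the 9 factors, a set of companions and the 3 protein-coding genes with mean TPM of at least 5 most like each factor, of which 1 for Batf is not reported here; promoters came from RefSeq. The factors, companions and lists were chosen with earlier results of these data known.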

Additional observations from a re-analysis of the deposited data

How the results depend on the processing

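Of 140 counts of factors recomputed under other settings, 130 stayed within 1.5 times the main count. The 2 changes of the low-value filter, with 20 counts each, could not move a count, because every factor passes both. The 10 counts that moved all came from the other settings. Of 450 single differences, 413 kept their direction and their side of 2-fold. With a pseudocount of 5, the number of factors at least 2-fold higher was 4 at day 3 of gefitinib and 3 in the day 21 vehicle library, both against vehicle at day 3, 1 at day 14 against day 3 of gefitinib, 1 with the combination against vehicle at day 21 and 2 with the combination against DC101. After rescaling by the median of ratios it was 6 with 4H2 against vehicle at day 21 and 1 at day 14 against day 3 of gefitinib, and 0 factors were at least 2-fold lower with the combination against vehicle at day 21. It was also 6 with 4H2 after leaving out muscle, skin, hair and adipocyte markers, and 6 without the 100 most abundant genes. The all-gene shares under these settings are given with each comparison above. The larger pseudocount shrinks differences of low genes by its construction; the cause of the others was not tested. Signs near 0 turned for Eomes with 4H2 (-0.10 to 0.14, 0.02 and 0.04), Id2 at day 14 against day 3 of gefitinib (0.02 to -0.07), Gata3 with DC101 (-0.04 to 0.01) and Bcl6 with DC101 (-0.02 to 0.02). With Cd8a and Cd8b1 as the denominator in place of CD3, 21 differences moved and 33 held, with Ptprc 11 moved and 43 held, and with the 13 T cell markers 2 moved and 52 held. Ptprc was chosen after seeing the data, and with it Tox at day 14 of gefitinib against vehicle at day 3 was 1.12 in place of -0.62. No paired analysis was possible because each group has 1 library, and no library could be left out of a pair. Depth is unknown, so low values such as 0.3 TPM for Tbx21 carry an error that could not be given beyond rounding.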

Other observations

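Other fate factors were read beside the 9. Tcf7, which keeps memory and stem-like T cells, had 2.8 TPM in the day 3 vehicle library, 28.9 and 30.9 TPM at days 3 and 14 of gefitinib, 15.3 TPM with DC101, 31.8 TPM with 4H2, 46.5 TPM with the combination and 9.5 TPM with vehicle at day 21. Its partner Lef1 was likewise highest with the combination, at 14.5 TPM, against 1.8 TPM with vehicle at day 21. Skin and hair follicle markers summed to 504 TPM with the combination, against 20.8 TPM with 4H2 and 7.40 TPM with vehicle at day 21. Their part in the levels of Tcf7 and Lef1 was not tested. Of the follicular helper genes, Il21 had 1.9 TPM with 4H2 and 2.4 TPM with the combination, against 0.1 to 0.4 TPM in the other 5 libraries, and Cxcr5 had 3.4 TPM and 5.7 TPM, against 0.3 to 3.1 TPM. B and plasma cell markers summed to 190 TPM with 4H2 and 304 TPM with the combination, against 110 TPM with vehicle at day 21.

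Not every fate factor was lowest in the day 3 vehicle library. Id3, the relative of Id2, had its highest level at day 3 of gefitinib, 307.3 TPM, against 64.7 TPM with vehicle at day 3. Its lowest level was 51.7 TPM, with 4H2. Nr4a2, a factor induced by receptor signalling, had 19.3 TPM at day 14 of gefitinib and 4.1 to 7.0 TPM in the other 6 libraries. It was lowest with the combination. Foxp3, the factor of regulatory T cells, was in turn lowest in the day 3 vehicle library, at 2.4 TPM. It had 15.6 and 23.2 TPM at days 3 and 14 of gefitinib. At day 21 Foxp3 had 8.7 TPM with DC101, 16.2 TPM with 4H2, 13.7 TPM with the combination and 11.4 TPM with vehicle.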
